A study of Mus musculus with 9 samples.

Results

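Interleukins and their IL-1 family relatives are among the cytokines with which macrophages answer bacterial lipopolysaccharide (LPS). Their footprints were measured by RiboSeq, which counts the stretches of mRNA that ribosomes protect from nuclease, so that the level of a gene reflects both the abundance of its mRNA and how densely ribosomes occupy it. The genes described are Il1a, Il1b, Il1rn, Il6, Il10, Il12b, Il15, Il18, Il23a and Il27, taken by symbol from the table of all libraries. All 10 were among the 16921 gene identifiers of that table. Of these identifiers, 10099 reached a mean level of at least 10, and 7 of the 10 interleukin genes were among them. Il10, Il12b and Il27 stayed below that level and have no standard error, so that no comparison between conditions was tested for them.

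The cells were bone marrow-derived macrophages (BMDMs) from TTP-deficient mice that had been immortalized with the oncogenes hcmyc and hRasG12V and were positive for CD11b and F4/80. They were transduced with tet-inducible vectors for GFP, GFP-TTP or GFP-TTP-AA, so that each condition is a separate line and a difference between conditions cannot be told apart from a difference between lines. TTP-AA is a mutant of TTP that the kinase MK2 cannot phosphorylate. All 9 libraries, 3 per condition, came from cells that received doxycycline (1 µg/ml) for 6 h and LPS (1 µg/ml) for 1 h, so that a condition without LPS and a macrophage with its own TTP gene are not part of the comparison.

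TTP, the product of Zfp36, binds AU-rich elements in 3′UTRs and recruits the machinery that removes the poly(A) tail and degrades the mRNA. Phosphorylation by MK2 after LPS weakens this activity. Among the interleukins, Il1a and Il1b encode the IL-1 agonists, Il1rn encodes the antagonist that occupies their receptor without signalling, and Il18 encodes a further family member that, like pro-IL-1β, is made as a precursor and cut by caspase-1. Il6, Il10 and Il15 encode separate cytokines, while Il23a, Il12b and Il27 encode subunits of paired cytokines.

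The question that the comparisons address for these genes is whether the induced TTP, or its mutant, changed the ribosome occupancy of mRNAs that carry such elements. The AU-rich motifs were therefore located first, in the 3′UTR of 1 transcript per gene (GENCODE vM21 on GRCm38, read on the mRNA strand). The pentamer ATTTA occurred in the 3′UTR of 9 of the 10 interleukin genes, compared with 68.9% of the 9843 kept genes with a 3′UTR. The longer TATTTAT occurred in 7 of the 10, compared with 29.2% of those genes, and the nonamer TTATTTATT, which contains both, in 2 of the 10, compared with 7.50%. Overlapping copies were counted, and longer motifs were counted again in the shorter ones. Il1rn was the interleukin gene without a pentamer, in a 3′UTR of 1864 bases.

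The densest 30-base window of the 3′UTR is shown for the 6 tested genes that have the motif, since these windows show how unequally the elements are spread over the genes whose footprints were compared. Each is written 5′ to 3′ along the mRNA with ATTTA in capitals. The window of Il23a lies at chr10:128296180-128296209 (minus strand) and starts 587 bases after the stop codon. That of Il1b lies at chr2:129364802-129364831 (minus strand), that of Il1a at chr2:129300103-129300132 (minus strand) and that of Il6 at chr5:30019684-30019713 (plus strand). The windows of Il15 at chr8:82331692-82331721 (minus strand) and of Il18 at chr9:50581797-50581826 (plus strand) hold the only copy of their 3′UTRs.
Il23a: atgatggttATTTAttctATTTAtaaggaa
Il1b: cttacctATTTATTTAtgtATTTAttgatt
Il1a: tctatgtATTTAtaaatatATTTAtgataa
Il6: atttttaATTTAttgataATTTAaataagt
Il15: ttgcttatttttaATTTAttgcttcatttg
Il18: cccgaggctgcatgATTTAtagagtaaaca

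Il23a had 6 pentamers in 657 bases, of which 1 is part of a nonamer that lies in the window shown. At least 6 copies were found in 1.55% of the 2260 kept genes whose 3′UTR was within 1.5 times of this length. Il6 had 6 in 427 bases, which 0.488% of genes of like length matched, and Il1b had 4 in 459 bases, which 3.79% matched. Il1a had 3 in 1101 bases, a number reached by 33.1% of genes of like length. Il15 and Il18 each had 1 pentamer and no TATTTAT. The 3 interleukin genes below the level filter also carried the motif, with 6 copies each in Il10 and Il12b and 5 in Il27, where 2 nonamers were present.

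**Figure D1:**
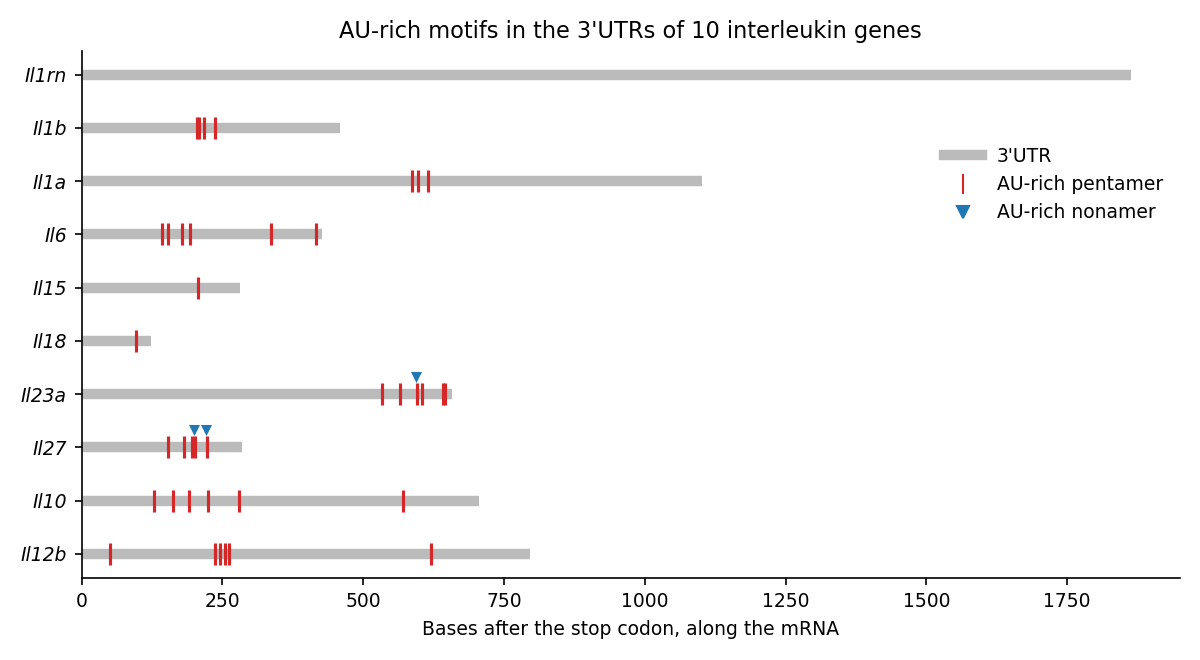
Position of AU-rich motifs in the 3′UTR of each interleukin gene, in bases after the stop codon. Grey bars give the 3′UTR, red ticks the pentamers and blue triangles the nonamers. Il1rn has the longest bar and no tick, whereas Il23a has 6 ticks towards the end of its 3′UTR and Il27 has 5 ticks and 2 triangles.

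The 9 libraries and the cell type were checked before the interleukins. Fitted counts summed to between 2570292 and 12804501 per library, and size factors ranged from 0.417 to 2.13. Zfp36 had a level of 441, 435 and 499 in the GFP libraries, 894, 879 and 1005 in the GFP-TTP libraries and 1482, 1451 and 1665 in the GFP-TTP-AA libraries. The levels are in the order of the replicate numbers, and the 3 conditions did not overlap. Depending on the pair of conditions, 25.5% to 34.4% of all tested genes had ranges without overlap. The log2 fold change of Zfp36 in GFP-TTP-AA against GFP-TTP was 0.73, so that these lines differ in its level as well as in the mutation. Footprints of the fusion mRNA and of the disrupted gene cannot be told apart in the level of Zfp36. Of 10 macrophage marker symbols 9 were in the table and 8 were kept. The symbol without a line, Adgre1, is another name of Emr1, which was kept. The summed level of the markers was 87988 to 106098 with GFP, 70024 to 83494 with GFP-TTP and 99841 to 121184 with GFP-TTP-AA. Lyz2, which encodes lysozyme, made up most of it. This sum was lowest with GFP-TTP, and its part in the results below was not tested. The marker lists of T cells, B cells, neutrophils, dendritic cells and fibroblasts had no kept gene. Their highest gene, Zbtb46 of dendritic cells, had a mean of 3.30.

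Every level below is a scaled fitted count, that is, the value which the authors' DESeq2 model fitted for a gene in a library, divided by the size factor of that library. On the log2 scale the model adds a term for the condition to a term for the replicate, so that libraries of a condition differ from each other only by the replicate term, which is the same in all 3 conditions. Scatter between replicates is therefore absent from the levels, and it enters the comparisons through the standard error (SE) which the authors' model gave for each gene. The difference between conditions was tested with a two-sided Wald test, the log2 fold change divided by its SE, with Benjamini-Hochberg adjustment over all kept genes with an SE and a threshold of 0.05.

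The interleukins differed widely in level. Per kb of coding sequence, Il1rn had the highest mean level over the 9 libraries with 2307, followed by Il1b with 582 and Il1a with 194. Il6, Il15 and Il18 had 48.1, 47.4 and 47.0 per kb, and Il23a had 20.7. The median of all 9957 kept genes with a coding length was 146, so that the 3 genes of the IL-1 receptor ligands lay above it and the 4 other tested interleukins below it. Il1rn exceeded 95% of these genes, Il1b 80.9% and Il1a 57.5%. In contrast, Il6, Il15, Il18 and Il23a exceeded 23.6%, 23.3%, 23.1% and 10.2% of them.

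The ranges of the fitted values were separate for the tested genes at the top and not below it. These ranges hold no scatter between replicates, so that they do not measure how firm the order is. The lowest of the 9 values per kb was above the highest value of the next gene for Il1rn, Il1b and Il1a. The ranges of Il6 (41.3 to 55.3), Il15 (31.7 to 63.0) and Il18 (34.9 to 59.5) overlapped, and these 3 genes had no order. Il23a, at 12.9 to 32.4, was below the ranges of Il6 and Il18, and its highest value was just above the lowest value of Il15. The antagonist gene Il1rn was thus 3.96 times the level of Il1b and 11.9 times that of Il1a per kb. The ratio of Il1rn to Il1b was 3.87, 3.94 and 4.05 in the GFP, GFP-TTP and GFP-TTP-AA lines. RiboSeq reads of the secreted and the intracellular forms of the antagonist are summed in this value.

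Il27, Il10 and Il12b were close to 0. Their mean levels were 1.68, 0.750 and 0.145, and their fitted counts added up to 17.5, 7.81 and 1.51 over all 9 libraries. IL-23 is a pair of the Il23a and Il12b products, and IL-27 a pair of the Il27 and Ebi3 products. Hence the measured partner of Il23a was itself barely covered, whereas the partner of Il27, Ebi3, had a mean level of 77.2. Il12a, the partner of Il12b in IL-12, had no line in the table used here. Levels of these 3 genes ranged over no more than 1.18-fold between the 9 libraries, which at such counts is a property of the fit and no evidence of an even level.

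**Figure D2:**
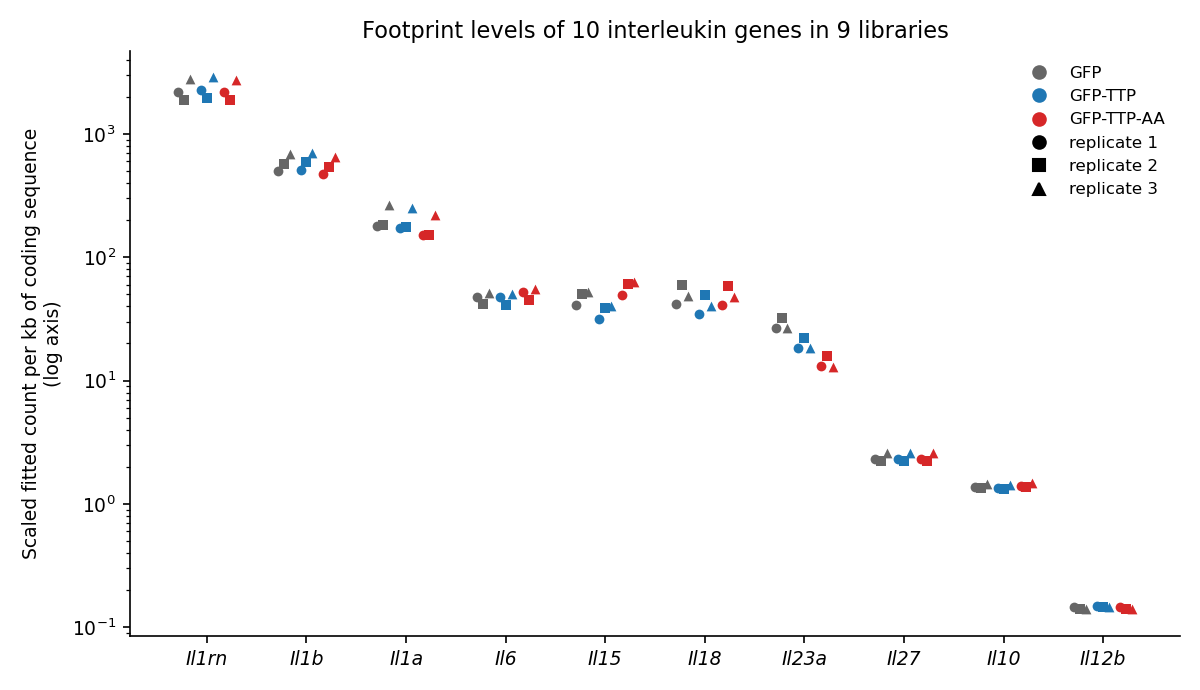
Level of each interleukin gene in each of the 9 libraries, as scaled fitted count per kb of coding sequence on a log axis. Colours give the condition and symbols the replicate number. Il1rn, Il1b and Il1a lie above all others, Il6, Il15 and Il18 share a range, and Il27, Il10 and Il12b lie under 3.

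Il23a was the only tested interleukin gene that passed the threshold, in GFP-TTP-AA against GFP. It encodes the p19 subunit of IL-23, which drives T cells that produce IL-17. Its level was 15.8, 19.1 and 15.7 in GFP libraries 1, 2 and 3, it was 10.9, 13.2 and 10.8 with GFP-TTP, and it was 7.72, 9.32 and 7.65 with GFP-TTP-AA. The 3 ranges did not overlap, with GFP highest and GFP-TTP-AA lowest. Fitted ranges without overlap were frequent, in 25.5% of all tested genes in GFP-TTP against GFP, 26.9% in GFP-TTP-AA against GFP and 34.4% in GFP-TTP-AA against GFP-TTP. As the values are fitted, this says that the condition terms of this gene were larger than its replicate terms.

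With GFP-TTP-AA the level of Il23a was 2.05-fold lower than with GFP (log2 fold change -1.03, SE 0.24, 3 libraries per condition, adjusted p = 0.00163 by the Wald test). In this comparison 3.02% of all 10099 tested genes passed the threshold, 1.74% with a higher and 1.28% with a lower level, and 1 of the 7 tested interleukins did. With a pseudocount of 10 added to the levels, which is close to the level itself, the log2 fold change was -0.56. With GFP-TTP the level was 1.45-fold lower than with GFP (log2 fold change -0.54, SE 0.24), which did not pass (unadjusted p = 0.0252, adjusted p = 0.327, Wald test across all genes). With GFP-TTP-AA it was 1.41-fold lower than with GFP-TTP (log2 fold change -0.50, SE 0.24), which did not pass either (unadjusted p = 0.0357, adjusted p = 0.184, Wald test across all genes). The 3 comparisons share their libraries and are not independent of each other.

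Il23a was also the tested interleukin with the lowest level, with a fitted mean of 12.2, and the mean of its observed counts after scaling was 13.9 in the authors' tables. Under a filter of 50 it was not tested, and 3 of the 10 interleukins, Il1a, Il1b and Il1rn, were. Its SE of 0.24 was close to the median SE of the 449 genes within 0.5 log2 units of its level.

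The fold changes of this fit are shrunken towards 0, and the shrinkage was unequal among the interleukins. The part of a change that was kept followed from the SE, since a gene has a single dispersion in the model and the solutions whose dispersions agreed best over the 3 comparisons were taken. For 200 kept genes drawn at random this agreement was within 1% in 99.0%. The solutions were chosen for their agreement, so that this share cannot show that the right one was taken. The dispersions of the next best choice differed by 600% for Il23a, but by only 0.209% for Il1b and 0.0788% for Il1rn. The parts kept by Il1b and Il1rn therefore rest on a narrower margin. Il23a kept 34.7% of its change in GFP-TTP-AA against GFP. The estimate without shrinkage, the log2 fold change divided by the part kept, was -2.98 ± 0.69 (SE), with a 95% interval of 3.10-fold to 20.0-fold lower. This is an approximation, since shrinkage in the model is not exactly proportional. In GFP-TTP against GFP it was -1.50 with an interval from -2.82 to -0.19, and in GFP-TTP-AA against GFP-TTP it was -1.47 with an interval from -2.84 to -0.10. These intervals are not adjusted for the number of genes tested, and neither of these changes passed the threshold.

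Il15 was the other tested interleukin with conditions that did not overlap, in GFP-TTP against GFP and in GFP-TTP-AA against GFP-TTP. It encodes a cytokine that macrophages present on the IL-15 receptor α chain to NK and T cells. Its level was 19.9, 24.5 and 25.5 with GFP, 15.5, 19.0 and 19.8 with GFP-TTP and 24.2, 29.5 and 30.8 with GFP-TTP-AA, in the order of the replicate numbers. All values with GFP-TTP were below those of the other conditions, whereas GFP and GFP-TTP-AA overlapped.

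In GFP-TTP-AA against GFP-TTP the level of Il15 was 1.56-fold higher (log2 fold change 0.64, SE 0.25), with an unadjusted p = 0.0107 that did not pass after adjustment (adjusted p = 0.0845, Wald test across all genes). Here 10.3% of the 10099 tested genes passed, 5.59% with a higher and 4.66% with a lower level, and 0 of the 7 tested interleukins did, while 2 of the 7, Il15 and Il23a, had an unadjusted p under 0.05 against 22.1% of all tested genes. About 49.8% of the change of Il15 was kept, and the estimate without shrinkage was 1.28 with a 95% interval from 0.30 to 2.27 on the log2 scale. Against GFP, its log2 fold change was -0.36 in the GFP-TTP line and 0.28 in the GFP-TTP-AA line (SE 0.25 each).

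**Figure D3:**
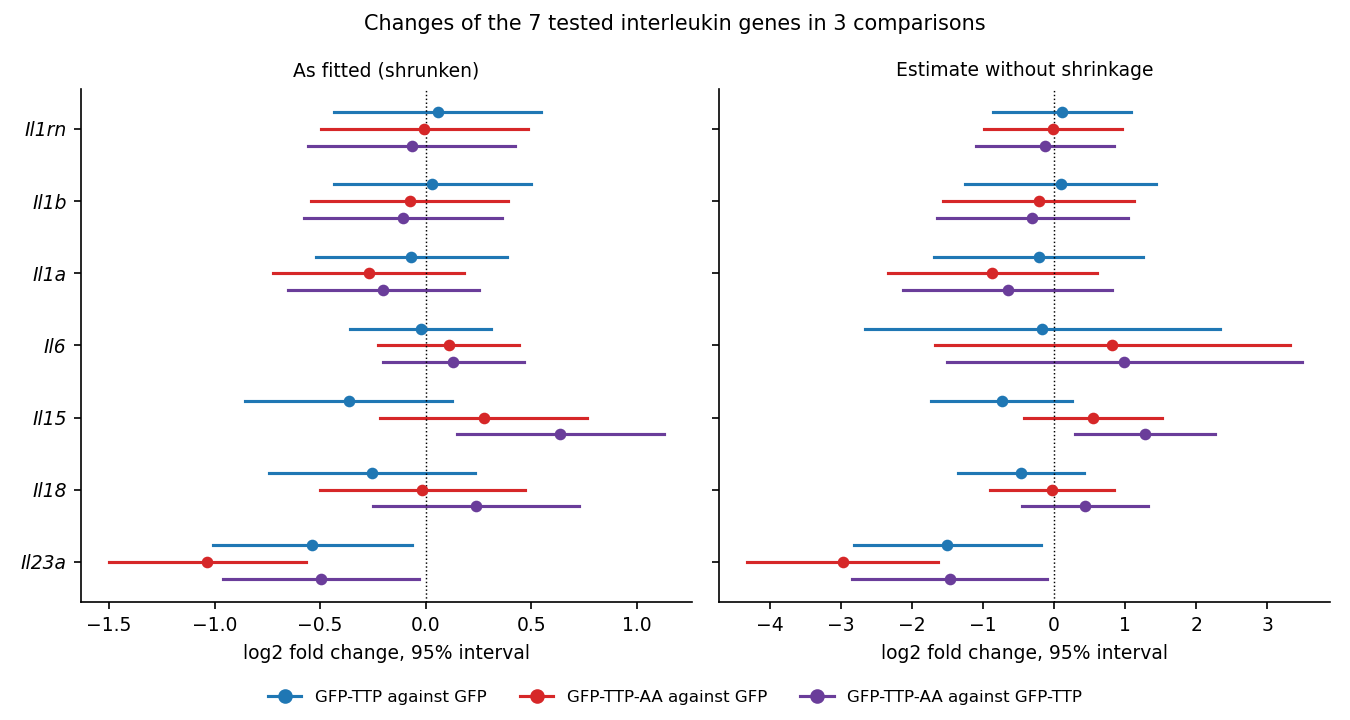
Log2 fold changes of the 7 tested interleukin genes in the 3 comparisons with 95% intervals, as fitted with shrinkage (left) and as estimated without it (right). The x axes differ in scale. The intervals are not adjusted for the number of genes tested. Those of Il23a lie below 0 in all 3 comparisons, but only GFP-TTP-AA against GFP passed the threshold after adjustment. That change is -1.03 on the left and -2.98 on the right, and the interval of Il6 is the widest on the right.

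The IL-1 agonists and their antagonist had nearly equal fitted levels in the 3 conditions. Il1b, with 4 pentamers, had a level of 402, 466 and 559.5 with GFP, 413, 476 and 571 with GFP-TTP and 383, 441 and 530.2 with GFP-TTP-AA. The ranges overlapped almost entirely. Against GFP its log2 fold change was 0.03 in the GFP-TTP line (SE 0.24, adjusted p = 0.979, Wald test) and -0.08 in the GFP-TTP-AA line (SE 0.24, adjusted p = 0.954, Wald test).

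Il1a had a level of 147, 149 and 215 with GFP, 140.3, 142 and 205 with GFP-TTP and 122, 123 and 178 with GFP-TTP-AA. Values with GFP-TTP-AA were lowest, and the ranges of all conditions overlapped. The log2 fold change in GFP-TTP-AA against GFP was -0.27 (SE 0.23), which did not pass the Wald test (adjusted p = 0.685).

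Il1rn had a level of 1170.4, 1014 and 1489 with GFP, 1222, 1056 and 1546 with GFP-TTP and 1169, 1006 and 1479 with GFP-TTP-AA. Conditions overlapped throughout, and the log2 fold changes were 0.06, -0.01 and -0.07 in GFP-TTP against GFP, GFP-TTP-AA against GFP and GFP-TTP-AA against GFP-TTP (SE 0.25 each). Il1rn differed from the agonists in having no pentamer in its 3′UTR, and a difference of its change from theirs was not tested.

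A p-value over the threshold does not show that these levels were equal, and their intervals were wide. Il1b kept 34.8% of its change in GFP-TTP-AA against GFP, and the interval without shrinkage ran from 0.339-fold to 2.18-fold. For Il1a it ran from 0.197-fold to 1.51-fold and for Il1rn from 0.505-fold to 1.94-fold. The SE of the 3 genes was large for their level. Il1rn had a larger SE than 99.8% of the 844 genes within 0.5 log2 units of its level, Il1b than 99.0% of 1719 and Il1a than 98.5% of 1894.

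Il6, the pyrogenic and acute phase cytokine, had a level of 30.5, 26.7 and 32.7 with GFP, 30.1, 26.3 and 32.1 with GFP-TTP and 33.0, 28.7 and 35.2 with GFP-TTP-AA. The conditions overlapped, and the log2 fold changes were -0.02, 0.11 and 0.13 in the 3 comparisons in the order above (SE 0.17 each). The SE of Il6 was small because the gene was strongly shrunken and not because it was measured precisely. In the fit only 13.4% of its change was kept in GFP-TTP-AA against GFP, and its dispersion was 1.13 compared with 0.106 to 0.398 for the 6 others. The estimate without shrinkage was 0.82 ± 1.27 (SE) on the log2 scale, with an interval from 0.312-fold to 9.97-fold. The fitted change of Il6 near 0 therefore leaves its direction and size unsettled.

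Il18 had a level of 24.0, 34.5 and 28.1 with GFP, 20.2, 28.9 and 23.5 with GFP-TTP and 23.9, 34.0 and 27.8 with GFP-TTP-AA. Values with GFP-TTP were lowest, and the ranges overlapped. The log2 fold changes were -0.25, -0.02 and 0.24 in GFP-TTP against GFP, GFP-TTP-AA against GFP and GFP-TTP-AA against GFP-TTP (SE 0.25 each), and none passed the Wald test (adjusted p = 0.780, 0.993 and 0.631).

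In GFP-TTP against GFP 2.1% of the 9938 tested genes passed the threshold, 0.815% with a higher and 1.29% with a lower level, and 0 of the 7 tested interleukins did. The unadjusted p was under 0.05 for 1 of the 7, Il23a, and for 11.3% of all tested genes. Of the 7, 5 had a lower and 2 a higher level with GFP-TTP, with a median log2 fold change of -0.07 compared with 0.00 for all tested genes. The medians of the 7 were -0.02 in GFP-TTP-AA against GFP and -0.07 in GFP-TTP-AA against GFP-TTP, again compared with 0.00 for all tested genes in each comparison. Fewer mRNAs per cell and fewer ribosomes per mRNA cannot be told apart in these values.

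Fitted levels of the IL-1 genes differed more between replicate numbers than between conditions. Replicate 3 was above replicate 1 by 0.55 for Il1a, 0.47 for Il1b and 0.34 for Il1rn on the log2 scale, which exceeded the same difference in 96.7%, 95% and 89.8% of all kept genes. Their fitted condition differences were no larger than 0.27 in size. The median over all kept genes was -0.01, with an SD of 0.29. Il18 was highest in replicate 2, by 0.52 over replicate 1, and Il23a by 0.28, whereas replicates 1 and 3 of Il23a differed by -0.01. Replicate 3 was above replicate 1 in 6 of the 7 tested interleukins, with a median of 0.34 and a value of 0.35 for Il15, and Il23a was the exception. The labels do not say what a replicate number marks, and the authors' model had a term for the date of the library. These differences are also shrunken, and the part kept was not estimated for them. The ranking therefore holds for the fitted values only. Without shrinkage the log2 fold change of Il1a in GFP-TTP-AA against GFP was -0.87.

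**Figure D4:**
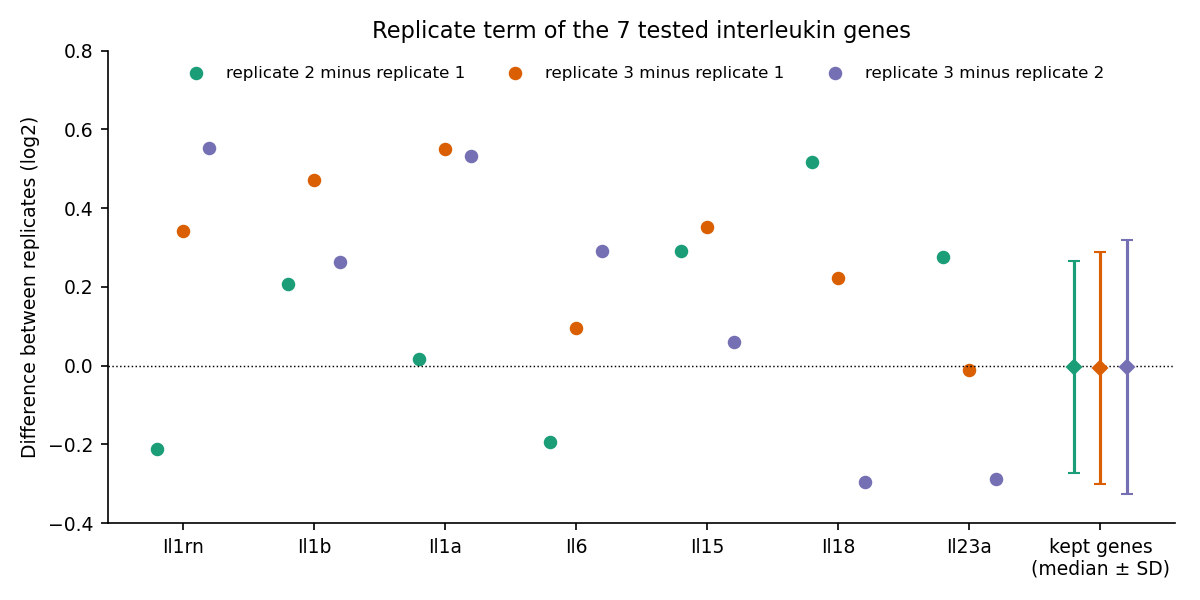
Log2 difference between replicate numbers for the 7 tested interleukin genes, with the median and SD of all kept genes on the right. Replicate 3 exceeds replicate 1 by 0.34 to 0.55 for Il1rn, Il1b and Il1a, while Il18 has its largest difference, 0.52, between replicates 2 and 1.

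For some of the interleukins, other annotated genes lie on the same stretch of genome. Il1b overlaps the antisense gene Il1bos, Il1a overlaps Gm14023, Il18 overlaps Bco2 and Tex12, and Il27 overlaps Apobr, each on the opposite strand. Whether reads were counted by strand is not given in the sources used here, so that footprints of the overlapping genes may be included. Il23a, Il6, Il15 and Il1rn overlap no other gene of the annotation. Il1a and Il1b are neighbours, with 54597 bases between them.

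In GFP-TTP-AA against GFP the fitted change of Il23a was larger than that of any tested gene around it. Il23a was the interleukin gene that passed in this comparison, so that this rank is no separate support for its change. Fitted changes are shrunken, and the part kept was not estimated for the neighbours. Within 1 Mb on either side on chromosome 10, where Il23a spans 128296139 to 128298752 on the minus strand, 44 genes were tested. Their median log2 fold change in GFP-TTP-AA against GFP was -0.01, with a range from -0.57 to 0.60. Of the 44, 1 gene, Esyt1, passed the threshold, compared with 3.02% of all tested genes. In GFP-TTP against GFP, however, the median of these neighbours was -0.22 and that of all tested genes on chromosome 10 was -0.12. Here 4 of the 44 passed, compared with 2.1% of all tested genes. The log2 fold change of Il23a in that comparison was -0.54, and -0.42 with the median of its chromosome subtracted. In GFP-TTP-AA against GFP-TTP the neighbours and the chromosome each had a median of 0.17, and 6 of the 44 passed, compared with 10.3% of all tested genes. There Il23a had -0.50, and -0.67 with the chromosome median subtracted (adjusted p = 0.0515, Wald test across all genes).

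The genes with the pattern most like that of Il23a were Sema5a, Eno2 and Wdr47, by the Euclidean distance between the 9 centred log2 levels. Distances were 0.351, 0.362 and 0.436, compared with a distance of 1.33 of Il23a from a flat line. Their log2 fold changes in GFP-TTP-AA against GFP were -0.89, -0.97 and -0.88, respectively. These genes were picked by the same fitted values, so that changes like that of Il23a follow from the choice. For Il1b the nearest genes were Aimp1, Atxn7l2 and Dync1li1 at 0.0347, 0.0877 and 0.110, compared with 0.594 from a flat line. Likeness over 9 fitted values rests on 4 numbers per gene, 2 differences between conditions and 2 between replicates.

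The interleukins were then set beside the genes they work with. Receptors and soluble inhibitors of the 10 cytokines made up a list of 18 genes, of which 16 were in the table and 8 were kept. In GFP-TTP-AA against GFP-TTP 3 of these 8 rose and none fell, compared with 5.59% and 4.66% of all tested genes. Il10ra, the ligand-binding chain of the IL-10 receptor, had a level of 143.6, 135 and 157 with GFP, 80.2, 75.4 and 87.2 with GFP-TTP and 188, 176 and 205 with GFP-TTP-AA. It was lowest with GFP-TTP, and the conditions did not overlap. It fell in GFP-TTP against GFP (log2 fold change -0.84, SE 0.23, adjusted p = 0.0152, Wald test), as 1 of the 8 and 1.29% of all tested genes, and rose by 1.23 on the log2 scale in GFP-TTP-AA against GFP-TTP (SE 0.23, adjusted p = 5.18e-06, Wald test).

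Il10rb, the second chain of that receptor, rose in GFP-TTP-AA against GFP-TTP (log2 fold change 0.66, SE 0.18, adjusted p = 0.00443, Wald test). Il2rg, the common γ chain through which IL-15 signals, rose against GFP-TTP (log2 fold change 0.59) and, as 1 of the 8 and 1.74% of all tested genes, against GFP (log2 fold change 0.60, SE 0.18, adjusted p = 0.0264, Wald test). The receptor of IL-1 itself was low, with a mean of 1.92 for Il1r1 and 0.240 for the decoy receptor Il1r2, while its accessory chain Il1rap had 68.3. The inhibitor of IL-18, Il18bp, had 0.250. The median log2 fold change of the 8 was -0.24, 0.05 and 0.36 in GFP-TTP against GFP, GFP-TTP-AA against GFP and GFP-TTP-AA against GFP-TTP.

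IL-1β and IL-18 leave the cell after cleavage in inflammasomes, and all 11 listed genes for processing and release were kept. Pycard, the adaptor ASC that links sensors to caspase-1, had a level of 1275, 991 and 1084 with GFP, 672, 521 and 568 with GFP-TTP and 1726, 1333 and 1459 with GFP-TTP-AA. The 3 conditions did not overlap, with GFP-TTP lowest and GFP-TTP-AA highest. It fell in GFP-TTP against GFP (log2 fold change -0.93, SE 0.13, adjusted p = 8.56e-10, Wald test), rose in GFP-TTP-AA against GFP (0.43, SE 0.13, adjusted p = 0.0337) and was higher by 1.36 in GFP-TTP-AA against GFP-TTP (SE 0.13, adjusted p = 2.18e-22).

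Casp4, the mouse caspase-11 that senses intracellular LPS, rose with GFP-TTP-AA against GFP (log2 fold change 0.70, SE 0.21, adjusted p = 0.0353, Wald test) and against GFP-TTP (0.64, SE 0.21, adjusted p = 0.0298). Hence 2 of the 11 were higher in each of these comparisons and none lower, compared with 1.74% higher of all tested genes against GFP and 5.59% against GFP-TTP. In GFP-TTP against GFP 1 of the 11 was lower, compared with 1.29% of all tested genes. The inflammasome sensor Nlrp3 had the highest level of the list, 3637, and log2 fold changes of 0.07, 0.14 and 0.07 in the 3 comparisons (SE 0.25 each), none of which passed. Casp1, the protease itself, had log2 fold changes of -0.06, 0.32 and 0.38, with an adjusted p = 0.0638 of the Wald test in GFP-TTP-AA against GFP-TTP. The median of the 11 was -0.07, 0.13 and 0.17 in the order of comparisons above.

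Few other interleukins were covered. A list of 34 further interleukin symbols held some genes under both an old and a new symbol. Of these symbols, 7 were in the table and 2 were kept, Il16 and Ebi3. Both rose in GFP-TTP-AA against GFP-TTP, as did 5.59% of all tested genes. Il16, whose product attracts CD4+ cells, rose by 0.61 (SE 0.20, adjusted p = 0.0234, Wald test) and Ebi3, the partner subunit in IL-27 and IL-35, rose by 0.62 (SE 0.21, adjusted p = 0.0402). The level of Ebi3 was 83.8, 73.6 and 72.8 with GFP, 66.9, 58.6 and 57.8 with GFP-TTP and 103, 89.6 and 88.7 with GFP-TTP-AA. GFP-TTP was lowest and GFP-TTP-AA highest, without overlap. Neither gene passed against GFP.

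**Figure D5:**
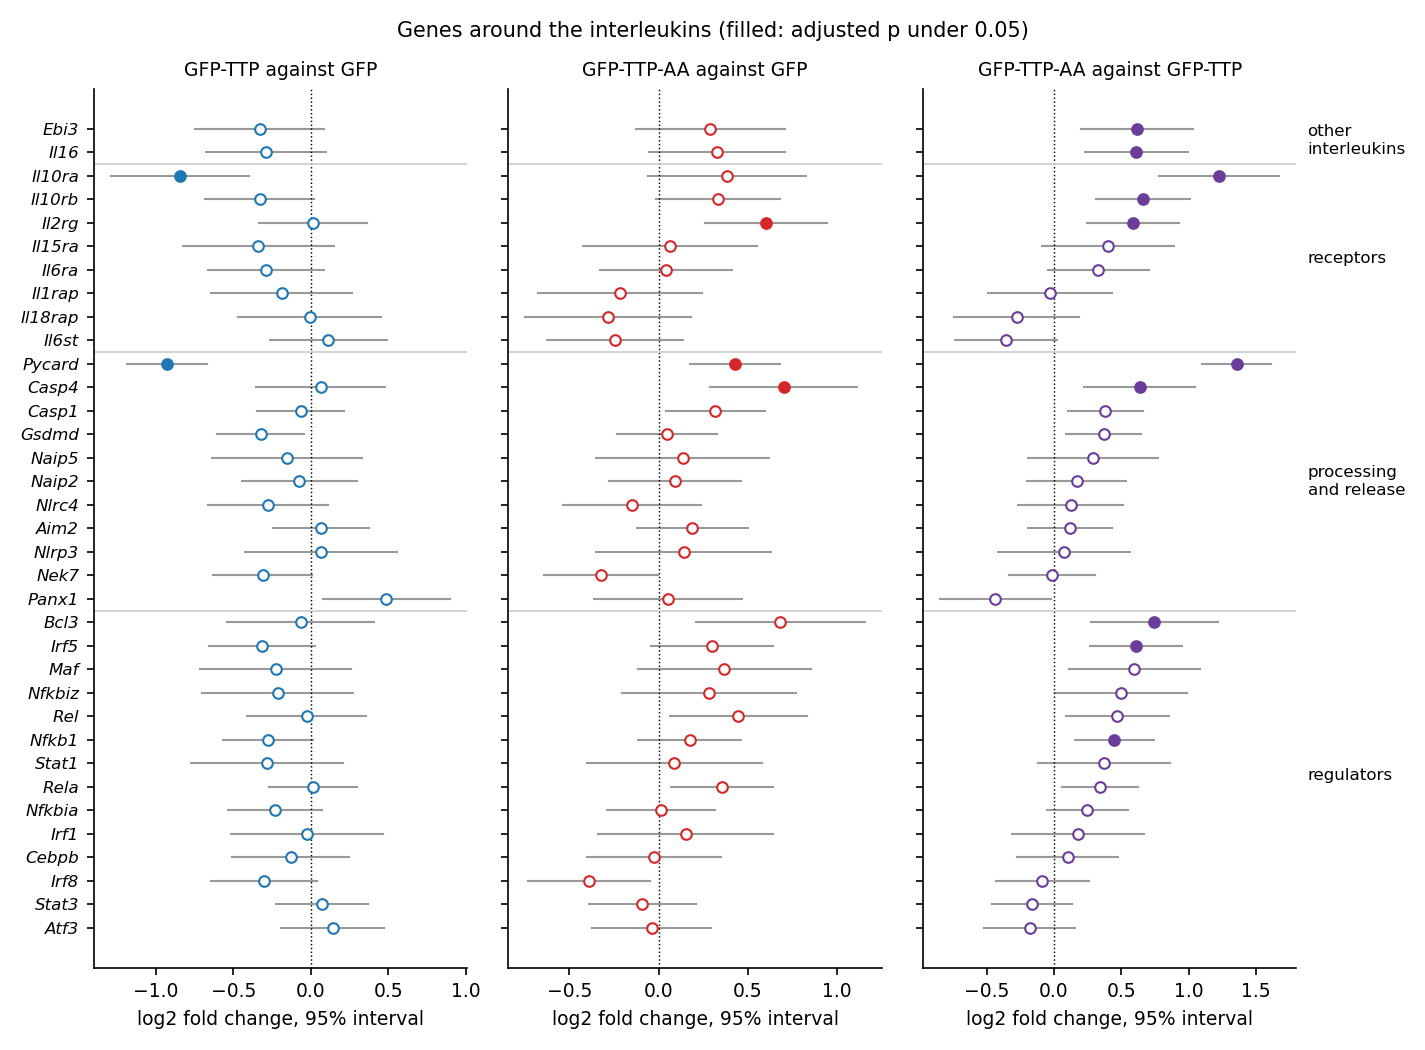
Log2 fold changes with 95% intervals of the kept genes from the 4 lists around the interleukins, in GFP-TTP against GFP (left), GFP-TTP-AA against GFP (middle) and GFP-TTP-AA against GFP-TTP (right). Filled points passed the threshold, namely 2, 3 and 10 of the genes shown. Pycard and Il10ra are the filled points on the left, and both lie furthest to the right in the third panel.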

How the data were processed

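RiboSeq was performed by the authors on 9 libraries, grouped here by the sample labels. Per the methods and the submitters' processing notes, the authors trimmed reads with Trim Galore, mapped them with TopHat to mm10 (GRCm38) with up to 2 alignments per read, counted them with HTSeq and fitted the counts with DESeq2 1.6.3, with terms for library date and condition. Genes with close copies can therefore share footprints.

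The authors' deposited table of normalized counts holds a signal, the fitted value of each gene and library, on 16932 lines for 16921 identifiers (11 lines repeated, 1 without a name). After gene-wise condition and replicate terms and 1 constant per library the residual SD of log2 values was 1.96e-15, compared with 4.79 for the values. Their deposited comparison tables hold the SE of a log2 fold change and the mean count as a signal, which were used, and the authors' fold changes, test statistics, p-values and adjusted p-values, which were not.

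Size factors were estimated as median ratios. Levels are geometric means over 3 libraries. Fold changes from these levels were divided by the deposited SE (Wald test, Benjamini-Hochberg over 9938, 10099 and 10099 genes whose fitted mean reached 10). Libraries are not stated to be separate cultures, so that p-values may measure technical spread. In simulated data, the part of a change kept after shrinkage was found within 2 percentage points in 270 of 270 cases. Motifs were searched in 1 transcript per gene (GENCODE vM21, GRCm38, 16836 identifiers with a position). Named genes were the 10 members, Zfp36, the 3 genes nearest in pattern to Il1b and to each member past the threshold, and from each list the genes past the threshold or otherwise up to 3 with the highest mean. Beyond this rule, Esyt1, the overlapping genes, the low receptor genes, Nlrp3, Casp1 and the marker genes were named after their values were seen. The members and lists were chosen with earlier results of these data known. Scripts used Python 3.11.15, numpy 2.4.6, pandas 2.3.3 and scipy 1.17.1.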

Additional observations from a re-analysis of the deposited data

How the results depend on the processing

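No paired analysis was possible because the deposited values are those of a fit that already holds a replicate term, so that neither a fit without the replicate block nor leaving out each replicate in turn could be run. Filters, scalings, centring, subtraction of the chromosome median and adjustment over the 3 comparisons together gave 114 results for the tested interleukins, of which 113 kept their direction and side of the threshold. The other was Il1rn in GFP-TTP-AA against GFP, which turned to 0.0210 with the chromosome median subtracted (unadjusted p = 0.933, Wald test across all genes). Filters and the joint adjustment leave each fold change and unadjusted p as it was, so that no direction could change there. Scaling, centring and the subtraction shift the fold changes by a constant over the same SE. The agreement was thus largely fixed in advance and is little evidence of robustness. Il23a stayed past the threshold in GFP-TTP-AA against GFP wherever it was tested (-1.07 to -1.03). With a mean of at least 50 it was not tested, and the count of interleukins past the threshold was 0. With a pseudocount of 10 the log2 fold changes of Il23a in GFP-TTP-AA shrank to -0.56 against GFP and -0.25 against GFP-TTP, each by more than 1 SE. Every other result of a tested interleukin with a pseudocount of 1 or 10 moved by less than 1 SE. Il10, Il12b and Il27 have no SE for such a comparison. Fitted sums and size factors give the relative depth of the libraries, and the number of reads sequenced is not known from the tables used here.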

Other observations

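Regulators of interleukin transcription and of the LPS response made up a list of 15 genes, of which 14 were kept. In GFP-TTP-AA against GFP-TTP 3 of the 14 rose and none fell, compared with 5.59% and 4.66% of all 10099 tested genes. Bcl3, a nuclear IκB protein, rose by 0.75 on the log2 scale (SE 0.24, adjusted p = 0.0256, Wald test), Irf5, a transcription factor of inflammatory macrophages, by 0.61 (SE 0.17, adjusted p = 0.00831) and Nfkb1, which encodes the p50 subunit of NF-κB, by 0.45 (SE 0.15, adjusted p = 0.0304). The level of Irf5 was 264, 209 and 353 with GFP, 213, 168 and 283 with GFP-TTP and 326, 256 and 433 with GFP-TTP-AA. The ranges of the 3 conditions overlapped. None of the 14 passed against GFP, with median log2 fold changes of -0.17 for GFP-TTP and 0.16 for GFP-TTP-AA.

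Over all tested genes, those with 3 or more copies of TATTTAT in the 3′UTR, as in Il1a, Il1b and Il23a, had a median of -0.11 on the log2 scale in GFP-TTP-AA against GFP (356 genes), compared with -0.05 for genes with 1 or 2 copies (2515 genes, with Il6) and 0.03 for genes without (6972 genes, with Il1rn, Il15 and Il18). The share that passed with a lower level was 4.21%, 2.07% and 0.875%, respectively. In GFP-TTP against GFP the medians were -0.05, 0.00 and 0.01, and the shares with a lower level 0.573%, 0.931% and 1.47%. In GFP-TTP-AA against GFP-TTP the medians were -0.06, -0.04 and 0.02, and the shares with a lower level, 4.49%, 5.84% and 4.35%, did not follow the number of copies. The median fitted mean was 151 in the first class and 232 in the last of GFP-TTP-AA against GFP, and these are descriptions without a test.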
